A study of Mus musculus with 4 samples.

Results

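H2-M9 and 6 genes of the MHC class I pathway (H2-K1, H2-D1, B2m, H2-Q4, H2-T23 and Tap1) were followed by symbol through every cell class of mouse popliteal vessels, and all 7 were among the 32286 genes measured. H2-M9 was chosen by its measured UMI level, since it had been seen among the leading genes of lymphatic-type muscle clusters in these same cells, so its high level there is a description and was given no test. The other 6 were chosen as class I genes. The study isolated popliteal lymphatic vessels (PLV) and the neighbouring vein from adult WT1xAi9 mice, and its title asks about the lineage of lymphatic muscle and its likeness to venous smooth muscle. Single cells were captured in droplets with a 3' kit whose random tag on every captured RNA, the unique molecular identifier or UMI, lets copies be counted once. The data used were 2 PLV libraries, from separate pools of 2 mice, and 1 mixed library of lymphatic and blood vessel cells from 1 pool of 2 mice. PLV tissue was digested for 30 minutes with collagenase I, Dispase II, DNase and Liberase, whereas the vessels of the mixed library were digested for 60 minutes with collagenase I and Dispase II alone and were then stained with hashtag antibodies.

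All mice carried the same alleles, an EGFP/Cre fusion knocked in at Wt1 and the Ai9 tdTomato reporter at Rosa26, and all were anaesthetised with K/X and injected in the footpad with Evans blue dye, which lymphatics take up. No group without these alleles or without the dye was measured. The hashtags were not used here, so vessel of origin is not known for single cells of the mixed library. Vessel, digestion, hashtag staining, run, version of the counting software and mice differ together between it and the PLV libraries.

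After filtering, 1909 and 516 cells were kept in PLV replicates 1 and 2 and 994 in the mixed library, with 9577642, 3390010 and 7770796 UMIs, and no cell barcode was shared between libraries. The libraries also differed in Xist, the RNA of the inactive X chromosome, with 6259, 2099 and 1 UMIs. Cells were clustered with the 7 members left out, and clusters were called "X-like" from their markers, so that muscle-like, fibroblast-like, blood endothelial-like, lymphatic endothelial-like and Schwann-like cells were found in all 3 libraries. Levels are CPM, a gene's UMIs per 1000000 UMIs of the summed cells of a class. Each comes with a 95% exact Poisson interval, which covers counting error only.

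Class I molecules carry short peptides from inside the cell to its surface, where CD8 T cells and natural killer cells read them. The heavy chain (H2-K1 and H2-D1 are the classical ones) is held by the light chain beta-2 microglobulin, the product of B2m, and is filled with peptides that the proteasome cuts and the Tap1 and Tap2 transporter pumps into the endoplasmic reticulum. H2-Q4 and H2-T23 (Qa-1) are nonclassical heavy chains, and H2-T23 presents signal peptides of other class I chains to the CD94/NKG2A receptor. H2-M9 belongs to the H2-Mv genes, a divergent class I group best known from sensory neurons of the vomeronasal organ, which express them together with V2R pheromone receptors. Endothelium is a classic site of high class I expression, and interferons raise class I expression through promoter elements bound by IRF, NF-kappaB and CREB-family factors.

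The members lie on chromosome 17 of GRCm38 except B2m, on chromosome 2, and all are annotated as protein coding. The H2-M9 gene is at chr17:36639285-36642666, on the minus strand. The windows from 250 bases before to 50 bases after the RefSeq start of each gene (GRCm38.p6) are shown for 5 members because they set H2-M9 beside class I genes with known regulation. They are chr17:36642614-36642913 (minus strand) for H2-M9, chr17:35262844-35263143 (plus) for H2-D1, chr17:34000298-34000597 (minus) for H2-K1, chr17:36032652-36032951 (minus) for H2-T23 and chr2:122147437-122147736 (plus) for B2m. Capitals mark matches, on either strand, to the CCAAT box (CCAAT), the core of the cyclic AMP response element (TGACG), a kappaB motif (GGGNNTTCC) and an IRF element (AANNGAAA), and matches on the gene's own strand to the TATA box (TATAAA).
H2-M9: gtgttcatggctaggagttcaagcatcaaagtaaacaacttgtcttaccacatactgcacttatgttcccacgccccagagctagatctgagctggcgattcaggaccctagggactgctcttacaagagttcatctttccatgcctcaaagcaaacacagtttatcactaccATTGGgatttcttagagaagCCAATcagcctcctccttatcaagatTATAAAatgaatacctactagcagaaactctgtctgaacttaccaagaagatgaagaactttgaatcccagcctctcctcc
H2-D1: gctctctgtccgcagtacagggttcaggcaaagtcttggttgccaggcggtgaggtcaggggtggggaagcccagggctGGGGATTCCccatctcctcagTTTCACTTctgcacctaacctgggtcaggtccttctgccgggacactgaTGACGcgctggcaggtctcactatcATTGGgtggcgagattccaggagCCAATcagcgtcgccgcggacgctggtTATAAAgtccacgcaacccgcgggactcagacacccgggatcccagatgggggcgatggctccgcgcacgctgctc
H2-K1: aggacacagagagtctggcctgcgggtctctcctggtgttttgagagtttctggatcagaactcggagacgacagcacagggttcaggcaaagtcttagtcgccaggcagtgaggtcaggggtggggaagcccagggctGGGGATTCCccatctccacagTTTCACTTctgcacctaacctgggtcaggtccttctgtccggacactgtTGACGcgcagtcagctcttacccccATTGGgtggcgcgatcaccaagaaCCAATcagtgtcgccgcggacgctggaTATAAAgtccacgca
H2-T23: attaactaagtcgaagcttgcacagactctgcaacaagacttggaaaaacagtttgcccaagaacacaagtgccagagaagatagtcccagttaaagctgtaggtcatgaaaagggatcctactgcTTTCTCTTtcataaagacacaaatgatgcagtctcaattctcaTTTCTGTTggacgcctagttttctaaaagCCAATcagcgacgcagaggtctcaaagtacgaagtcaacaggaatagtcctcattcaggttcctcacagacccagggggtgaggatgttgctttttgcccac
B2m: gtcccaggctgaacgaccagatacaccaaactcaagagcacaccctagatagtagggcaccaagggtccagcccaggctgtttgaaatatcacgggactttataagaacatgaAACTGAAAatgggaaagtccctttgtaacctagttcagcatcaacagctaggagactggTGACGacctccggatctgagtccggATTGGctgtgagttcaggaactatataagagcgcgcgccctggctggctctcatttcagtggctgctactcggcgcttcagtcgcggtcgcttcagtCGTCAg

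In the H2-M9 window only the CCAAT and TATA letters were found, with CCAAT matches starting 77 and 57 bases before the start and TATAAA starting 31 bases before it. H2-D1 had a like pair, at 76 and 53 bases, with TATAAA at 26 bases before the start, and in addition the kappaB letters at 171, the IRF letters at 150 and TGACG at 101 bases before the start. H2-K1 and H2-Q4 also held all 5 motifs, although in H2-K1 the TATA letters fall after the RefSeq start. H2-T23 had 1 CCAAT match and 2 IRF matches, B2m had 1 CCAAT, 2 TGACG and 1 IRF match, and Tap1 had 1 CCAAT and 1 TGACG match. Over all 27025 promoter windows of this length, CCAAT was present in 38.0% (at least 2 in 12.1%), TGACG in 20.9%, the kappaB motif in 5.68%, the IRF element in 24.1% and TATAAA in 8.88%. A match of letters is not a bound site, and letters not found in this window say nothing of elements elsewhere.

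Class I genes resemble one another, and 3' reads of one can be split with or lost to another. Of the 50-base words in the last 500 bases of their annotated transcripts, 27.5% were shared with another gene for H2-Q4, 18.8% for H2-D1, 17.9% for H2-T23 and 11.8% for H2-K1. The share was 1.55% for H2-M9 (with H2-M1, which had 0 UMIs here), 1.41% for Tap1 and 0 for B2m. Levels of H2-K1, H2-D1, H2-Q4 and H2-T23 are therefore less certain, by an amount that these shares do not give. Few words of H2-M9 were shared, and the mapping of single reads was not examined.

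Most H2-M9 UMIs were in muscle-like cells. Its level there was 97.5 CPM (218 UMIs, 429 cells) in PLV replicate 1, or 164.4 CPM when only cells with 1000 or more UMIs were kept, 62.6 CPM (49 UMIs, 110 cells) in PLV replicate 2 and 344.3 CPM (843 UMIs, 316 cells) in the mixed library. The mixed library was the highest, and the counting intervals (85.0 to 111.3, 46.3 to 82.7 and 321.5 to 368.4 CPM) did not meet between any of the 3 libraries, the 2 PLV libraries included. Fibroblast-like cells had 0 UMIs in all 3 libraries, in 386, 87 and 278 cells, which by a limit of 3 cells allows a share of cells with a UMI of up to 0.777%, 3.45% and 1.08%. Schwann-like cells also had 0 UMIs in all 3 libraries.

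**Figure D1:**
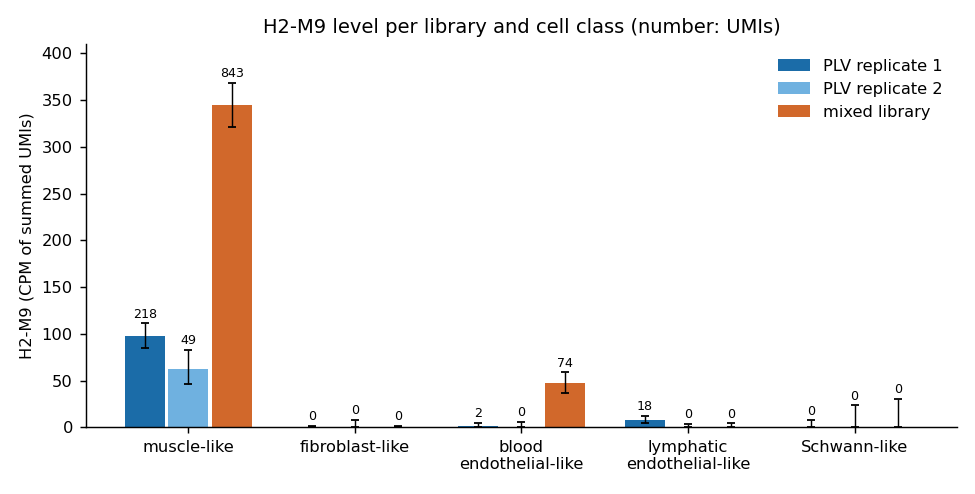
H2-M9 level (CPM of summed UMIs, linear axis) in the 5 cell classes named in every library, 1 bar per library, with 95% Poisson intervals and the number of UMIs above each bar. Muscle-like cells hold 218, 49 and 843 UMIs, and fibroblast-like and Schwann-like cells hold 0 in all 3 libraries.

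The few UMIs in endothelium came from few cells and differed by library. Blood endothelial-like cells of the mixed library held 74 UMIs, against 2 and 0 in PLV replicates 1 and 2. Those 74 UMIs, 47.0 CPM, came from only 7 of 174 cells. Those 7 cells, picked out by having a UMI, were at 361.6 CPM (283.9 to 453.9), with 24 UMIs in the highest cell. They had a median of 32149 UMIs against 6915 in the other 167, all 8 blood endothelial markers, and muscle markers at 947.9 CPM against 1323 in the others. Ano1, a gene used below to name a kind of muscle, went the other way, at 146.6 CPM (98.9 to 209.3) against 40.9 (30.9 to 53.0). Hmcn2, its partner there, had 0 UMIs against 1. Lymphatic endothelial-like cells had 18 UMIs (7.88 CPM) in PLV replicate 1, from 6 of its 192 cells, and none in the other libraries.

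Pericyte-like cells, which were named in 2 libraries, had 2 UMIs (16.4 CPM) in PLV replicate 2 and 20 UMIs (53.3 CPM) in the mixed library. For comparison, the RNA free in the mixed suspension can be read from 185412 droplets with at most 49 UMIs, where H2-M9 was at 60.0 CPM (45.8 to 77.2). The level summed over all blood endothelial-like or all pericyte-like cells of that library was at or below this background. Fibroblast-like cells, with a median of 6933 UMIs each, had none. A mixed cluster of 36 cells that stayed unnamed, with a median of 1298 UMIs, held 6 H2-M9 UMIs in 3 cells, 101.9 CPM (37.4 to 221.7). In PLV replicate 1, a keratinocyte-like cluster of 135 cells with a median of 1808 UMIs held 51 UMIs (111.3 CPM) in 12 cells. Those 12 cells had 0 of 6 keratinocyte markers, and muscle markers at 9635 CPM against 9155 in the rest of the cluster, so its H2-M9 UMIs came from cells in which none of those markers was detected.

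Within muscle, H2-M9 was limited to some clusters. Muscle-like clusters were put in a kind by the gene pair that set them apart, Ano1 with Hmcn2 (Ano1 encodes a calcium-activated chloride channel, Hmcn2 a hemicentin of the matrix), Pln with Sorbs2 (Pln encodes the calcium pump inhibitor phospholamban) or P2rx1 with Col12a1 (an ATP-gated channel and a collagen). A kind needed a mean log2 ratio of at least 1 over the other muscle-like cells. The Ano1-Hmcn2 clusters passed at 1.74 and 1.67 in the PLV libraries, and 1 cluster of 201 cells in the mixed library, led by Ntm, Enpp2, H2-M9 and Hmcn2, fell just outside at 0.91 and is called the Ntm-led cluster. H2-M9 was at 304.9 CPM (218 UMIs) in the 137 Ano1-Hmcn2 cells of PLV replicate 1 and at 152.0 CPM (49 UMIs) in the 57 of PLV replicate 2. In the mixed library it was at 512.3 CPM (678 UMIs) in the Ntm-led cluster and at 199.7 CPM (165 UMIs) in the 74 P2rx1-Col12a1 cells.

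Pln-Sorbs2 cells had 0 H2-M9 UMIs in every library, in 292, 53 and 41 cells. Against a floor of 3 counts per library, H2-M9 was at least 154.6-fold higher in the Ano1-Hmcn2 cells of PLV replicate 1 and at least 23.4-fold higher in those of PLV replicate 2. In the mixed library it was at least 51.0-fold higher in the Ntm-led cluster and at least 19.9-fold higher in the P2rx1-Col12a1 cells. H2-M9 had helped to choose this comparison, so the values are descriptive.

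The other members did not share that pattern, and 3 groups could be seen among them. B2m and H2-D1 were moderately higher outside Pln-Sorbs2 cells. B2m, the common light chain, was at 414.0 against 159.8 CPM in PLV replicate 1, a ratio of 2.59 (2.18 to 3.08), and at 446.7 against 143.2 CPM in PLV replicate 2, a ratio of 3.12 (2.32 to 4.24). In the mixed library B2m was at 77.1 CPM in Pln-Sorbs2 cells, 259.9 CPM in the Ntm-led cluster and 257.8 CPM in P2rx1-Col12a1 cells. H2-D1 ratios were 2.02 and 2.08 in the PLV libraries and 1.84 and 1.96 in the mixed one.

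H2-T23 was higher too, but on few counts. It had 7, 1 and 1 UMIs in Pln-Sorbs2 cells of the 3 libraries and 31 and 7 in Ano1-Hmcn2 cells of the PLV libraries, ratios of 9.42 (4.07 to 25.3) and 10.0 (1.29 to 451.2). In the mixed library the H2-T23 ratio was 9.02 (1.53 to 365.0) in the Ntm-led cluster. In P2rx1-Col12a1 cells it was 5.78 (0.90 to 242.3), an interval that includes 1. H2-K1 was at 137.1 against 132.8 CPM in PLV replicate 1 and 136.5 against 91.1 CPM in PLV replicate 2, with both ratio intervals including 1. H2-Q4 and Tap1 were low in all muscle, at 8.31 to 36.9 and 2.42 to 6.57 CPM. The H2-Q4 ratio was below 1 in all 4 comparisons and was lowest, at 0.23 (0.09 to 0.57), in the Ntm-led cluster.

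H2-M9, which met a minimum of 10 UMIs in each PLV library only through its Ano1-Hmcn2 cells, is left out of the counts that follow. Of the 4 other members that met it, H2-D1 and B2m were at least 2-fold higher in Ano1-Hmcn2 than in Pln-Sorbs2 cells in both, beside 10.2% of the 7879 genes so measured, and 0 were as much lower, beside 5.98%. Since kinds came from clusters of the same cells, nothing was tested. Among 13 such genes of a wider class I pathway list H2-D1 and B2m again were the 2 that passed and 0 were lower, with median log2 ratios of 0.17 and 0.51 in the 2 libraries beside 0.14 and 0.14 over all genes. Markers of other cells moved with the kind: summed fibroblast markers were at 1115 and 862.5 CPM in Ano1-Hmcn2 cells against 141.4 and 104.1 CPM in Pln-Sorbs2 cells, and blood endothelial markers at 391.6 and 229.6 against 62.5 and 15.2 CPM. Mast cell markers were at 72.7 and 105.5 CPM against 0.66 and 0, and lymphatic endothelial markers at 51.8 and 18.6 against 3.94 and 2.17 CPM. Macrophage markers ran the other way, at 4.20 and 0 against 19.7 and 19.5 CPM. MHC class II markers went both ways, at 16.8 against 50.6 CPM in PLV replicate 1 and 12.4 against 0 in PLV replicate 2. In the mixed library fibroblast markers were at 1411 CPM in the Ntm-led cluster, 1205 in P2rx1-Col12a1 and 519.4 in Pln-Sorbs2 cells, and blood endothelial markers at 262.9, 82.3 and 13.4 CPM. Mast cell markers were there at 275.8, 2.42 and 0 CPM and lymphatic endothelial markers at 16.6, 7.26 and 0 CPM. In Ano1-Hmcn2 cells 8 and 6 of 9 fibroblast markers and 8 and 5 of 8 blood endothelial markers had a UMI in the PLV libraries, with Pdgfra at 0 in both. The part of these cells' RNA in the B2m, H2-D1 and H2-T23 ratios was not tested.

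**Figure D2:**
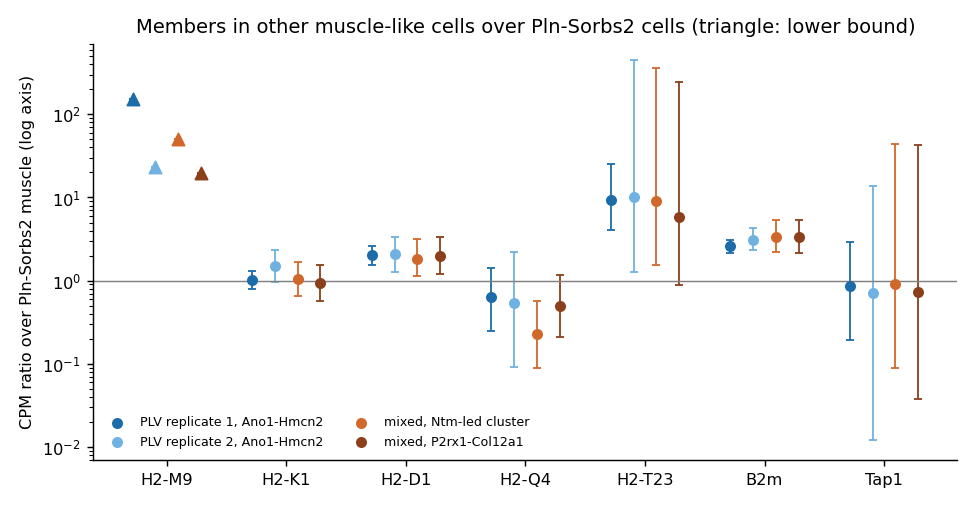
Ratio of each member's CPM in 4 muscle-like groups to that in Pln-Sorbs2 cells of the same library (log axis), with 95% counting intervals. Triangles for H2-M9 are lower bounds, 154.6 and 23.4 in the PLV libraries and 51.0 and 19.9 in the mixed one. B2m lies between 2.59 and 3.37, and H2-K1 between 0.93 and 1.5.

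Between cells of 1 cluster, H2-M9 was more uneven than depth alone would give. In the Ano1-Hmcn2 cells of PLV replicate 1, 106 of 137 cells had no H2-M9 UMI, where the same 218 UMIs spread by depth alone would leave 38.6 cells without one. In PLV replicate 2, 45 of 57 cells had none (27.0 by depth). In the mixed library 148 of 201 cells of the Ntm-led cluster (20.0 by depth) and 53 of 74 P2rx1-Col12a1 cells (12.0 by depth) had none. The remaining cells held most of the RNA. In the Ntm-led cluster 35 cells with at least 5 UMIs carried 94.4% of it, and the highest cell had 44 UMIs. In P2rx1-Col12a1 cells, 8 such cells carried 89.1% and the highest had 52.

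This unevenness was set beside genes of like abundance, those within 1.5-fold in the same cells. By number of cells without a UMI, H2-M9 ranked 1 of 484 and 2 of 1040 in the Ano1-Hmcn2 cells of the PLV libraries, 1 of 211 in the Ntm-led cluster and 1 of 602 in P2rx1-Col12a1 cells. B2m, measured the same way, ranked 229 of 339, 247 of 277, 323 of 479 and 270 of 447, and H2-K1 and H2-D1 likewise lay away from the extreme, between 276 of 968 and 1052 of 1621. H2-T23 ranked 129 of 2670 in the first PLV library and 1120 of 2547 in the Ntm-led cluster and was not ranked in the other groups, nor were H2-Q4 and Tap1 in any. The Poisson intervals given for H2-M9 are thus narrower than the spread among its cells. After each cell was thinned to 1500 UMIs, a UMI of H2-M9 was left in 12.8%, 12.2%, 20.4% and 13.5% of the cells of these 4 groups, against 22.6%, 21.1%, 26.4% and 28.4% unthinned, and in 0% of Pln-Sorbs2 cells.

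**Figure D3:**
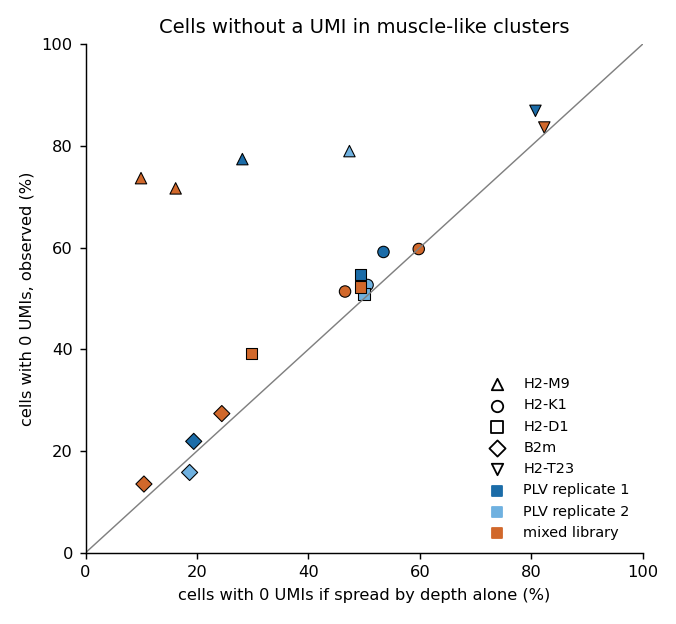
Percentage of cells without a UMI, observed against the percentage left by depth alone, for 5 members in the muscle-like clusters that hold H2-M9; symbols give the gene and colours the library, and the line marks equality. H2-M9 lies at 71.6% to 78.9% observed where 9.96% to 47.4% were left by depth, while B2m, H2-K1 and H2-D1 lie closer to the line.

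Muscle cells with and without an H2-M9 UMI were also compared for the other members. In the Ntm-led cluster, H2-K1 was at 92.2 CPM in the 53 cells with H2-M9 and 79.3 CPM in the 148 without, H2-D1 at 128.0 and 112.6 CPM, and B2m at 235.5 and 270.1 CPM, all with overlapping intervals. In the Ano1-Hmcn2 cells of PLV replicate 1, B2m was at 385.6 CPM in the 31 cells with H2-M9 and 424.4 CPM in the 106 without. In PLV replicate 2, where 12 cells had H2-M9, H2-K1 was at 67.8 against 162.5 CPM and H2-D1 at 56.5 against 171.1 CPM. B2m was there at 293.7 against 504.7 CPM. The H2-K1 and H2-D1 orders were thus not the same in every library, whereas B2m was the lower in cells with H2-M9 in 4 of 4 groups. Muscle markers were as high with H2-M9 as without (39772 and 36254 CPM in the Ntm-led cluster, 36162 and 37435 CPM in PLV replicate 1). Lymphatic endothelial markers were at 161.6 CPM with H2-M9 against 11.5 CPM without in PLV replicate 1 and at 2.56 against 22.5 CPM in the Ntm-led cluster, and mast cell markers in that cluster were at 28.2 against 379.5 CPM. Cells with H2-M9 were also deeper in 4 of 4 groups, with medians of 7946 against 6114 UMIs in the Ntm-led cluster. These values are descriptive, since the cells were split by a measured gene.

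Of the 12 H2-M genes in the files, H2-M9 had 1283 UMIs over the kept cells of the 3 libraries. H2-M3, a nonclassical gene that presents N-formyl peptides, had 405, H2-M11 had 15, H2-M5 had 6, H2-M2 had 1, and H2-M1 and all 6 H2-M10 genes had 0. H2-M11, another H2-Mv gene, had 0, 5 and 10 UMIs in the 3 libraries. In cells with an H2-M9 UMI it had 4 UMIs in the Ano1-Hmcn2 cells of PLV replicate 2, 5 in the Ntm-led cluster and 2 in the mixed blood endothelial-like cells, and in cells without one it had 0, 3 and 0. The 124 Vmn2r genes, which encode V2R receptors, had 47, 20 and 32 UMIs in all in the 3 libraries. The genes whose level most resembled H2-M9 over 31 sums of a library and a class or muscle cluster, among 12472 genes, were Fhl2 (r = 0.95), Olfr1033 (0.92), Ntm (0.92), Nipal4 (0.91), Rerg (0.90), Zdhhc14 (0.90), Pkp2 (0.90), Slco1c1 (0.89), Lurap1l (0.89) and N6amt1 (0.89). These are Pearson correlations of log2(CPM + 20), given as a description because the sums share libraries and the muscle clusters also enter the class sums. Over the same 31 sums, r of H2-M9 with the 6 other members ran from -0.52 (H2-Q4) to -0.27 (B2m). H2-K1 and H2-D1 correlated at 0.93 and H2-D1 and H2-T23 at 0.92. Because H2-M9 was chosen for its level in muscle, where the other 6 were low, its negative sign was favoured from the start. Within muscle, B2m, H2-D1 and H2-T23 were higher in the groups with H2-M9. H2-Q4 and Tap1 were not, and the H2-K1 ratio intervals included 1.

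The other 6 members were lowest, or nearly so, in muscle among the classes named in all 3 libraries. H2-D1 was at 103, 97.0 and 113.1 CPM in muscle-like cells of the 3 libraries and at 980.3, 1084 and 949.5 CPM in blood endothelial-like cells. It stood between them in lymphatic endothelial-like (601.2 ± 91.2 CPM, SD, n = 3 libraries) and fibroblast-like cells (485.1 ± 169.6). H2-K1 was at 134.2, 109.8 and 80.1 CPM in muscle-like and at 1185, 1060 and 674.7 CPM in blood endothelial-like cells. For both, the values of the classes were well apart, whereas lymphatic endothelial-like and fibroblast-like cells lay within each other's spread. In Schwann-like cells H2-K1 was as low as in muscle (101.7 ± 12.6 against 108.0 ± 27.1 CPM). Free RNA of the mixed suspension held H2-K1, H2-D1 and B2m at 106.9, 136.9 and 238.8 CPM. Muscle-like cells of that library were at 80.1, 113.1 and 236.9 CPM. H2-Q4, H2-T23 and Tap1 were at 12.99, 49.97 and 4.997 CPM in free RNA and 15.1, 23.3 and 2.86 CPM in muscle-like cells. Muscle levels of that library were thus near or below this background. The part of free RNA in them was not tested.

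B2m was at 248.7 ± 16.9 CPM in muscle-like cells of all kinds together, with little spread. Its spread was wide in blood endothelial-like (1064 ± 437.8) and fibroblast-like cells (872.7 ± 484.2), where the mixed library was low. H2-T23 had its highest level in lymphatic endothelial-like cells (288.9 ± 32.9 CPM), followed by blood endothelial-like (231.8 ± 25.5) and fibroblast-like cells (127.7 ± 5.73), with 16.8 ± 6.54 in muscle-like and 16.7 ± 6.87 CPM in Schwann-like cells. H2-Q4 was at 14.9 ± 0.82 and Tap1 at 4.32 ± 1.75 CPM in muscle-like cells, against 121.2 ± 38.5 and 32.0 ± 6.85 CPM in blood endothelial-like cells. In T-like cells, named in PLV replicate 1 alone, H2-K1 was at 2211 CPM, B2m at 2302 CPM and Tap1 at 136.6 CPM.

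**Figure D4:**
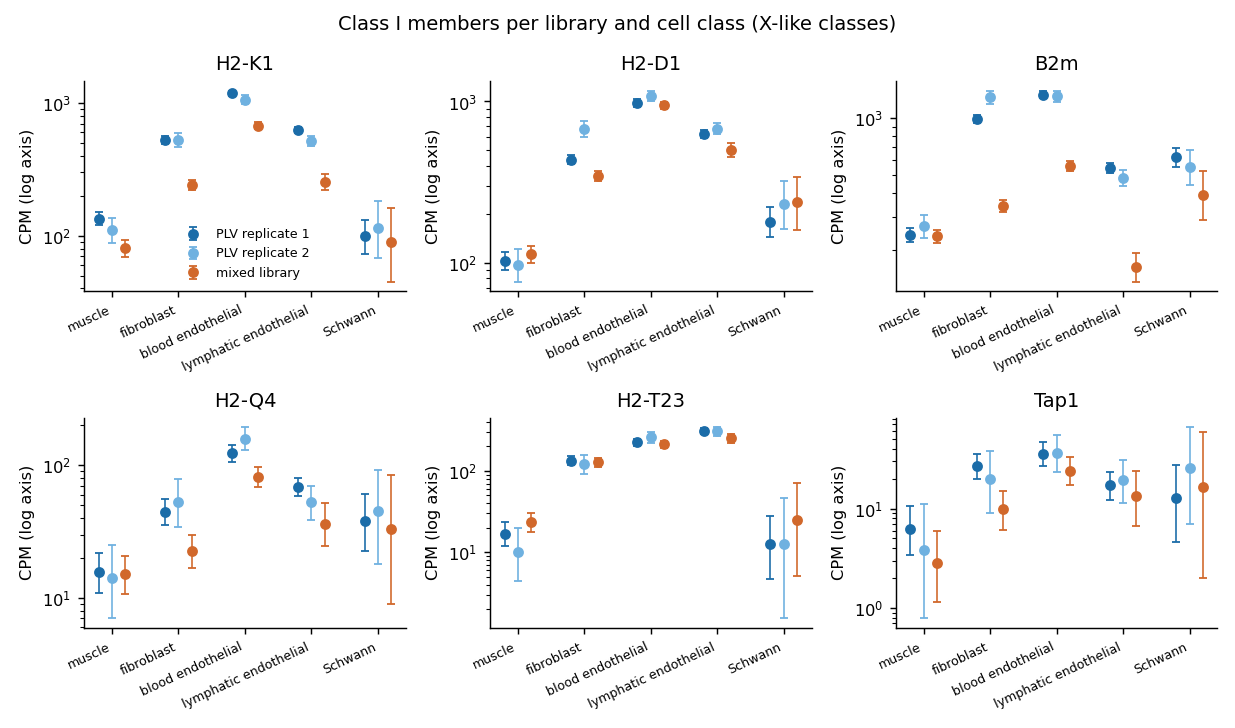
CPM (log axis) of the 6 members other than H2-M9 in the 5 cell classes named in every library, 1 point per library with its 95% Poisson interval. Muscle-like cells are low in all 6 panels and blood endothelial-like cells are high. In endothelial-like and fibroblast-like cells the mixed library lies below both PLV libraries for B2m, H2-K1, H2-D1, H2-Q4 and Tap1.

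Differences between classes were tested on UMI sums per library and class with edgeR's quasi-likelihood test, with the library as a block and Benjamini-Hochberg adjustment over 10536 genes at a threshold of 0.05. All 6 members were higher in blood endothelial-like than in muscle-like cells, beside 19.8% of all genes. The log2 differences ran from 1.85 for B2m (SE 0.28, adjusted p = 6.19e-05 by edgeR) to 3.61 for H2-T23 (SE 0.25, adjusted p = 1.46e-08). H2-D1 rose by 3.17 (SE 0.21), H2-K1 by 3.08 (SE 0.19), H2-Q4 by 2.81 (SE 0.23) and Tap1 by 2.72 (SE 0.29), and each was higher in 3 of 3 libraries. Fibroblast-like cells also had all 6 higher than muscle-like cells, beside 20.9% of genes, with differences from 1.44 for H2-Q4 (SE 0.25, adjusted p = 2.10e-04) to 3.04 for H2-T23 (SE 0.25, adjusted p = 1.11e-07).

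Lymphatic endothelial-like cells had 5 of 6 higher than muscle-like cells, beside 20.3% of genes higher and 42.2% called in either direction, led by H2-T23 at 3.92 (SE 0.25, edgeR adjusted p = 6.03e-09) and H2-D1 at 2.41 (SE 0.20). B2m was the exception at 0.38 (SE 0.28, edgeR adjusted p = 0.304), higher in 2 of 3 libraries. Without the mixed library its difference was 0.96 (SE 0.20, edgeR adjusted p = 5.35e-04), so the lack of a call rests on that library.

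The 2 kinds of endothelium differed from each other as well. Lymphatic were below blood endothelial-like cells for 5 of 6 members, beside 11.2% of genes, with log2 differences of -1.47 for B2m (SE 0.28, edgeR adjusted p = 8.87e-04), -1.17 for H2-Q4 (SE 0.21), -1.11 for H2-K1 (SE 0.18), -0.99 for Tap1 (SE 0.25) and -0.76 for H2-D1 (SE 0.19), each lower in 3 of 3 libraries. H2-T23 was at 0.31 (SE 0.21, adjusted p = 0.371) and higher in 3 of 3 libraries. Without PLV replicate 2, 3 of the 6 were called, since H2-D1 (adjusted p = 0.0701) and Tap1 (0.0961) were not.

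**Figure D5:**
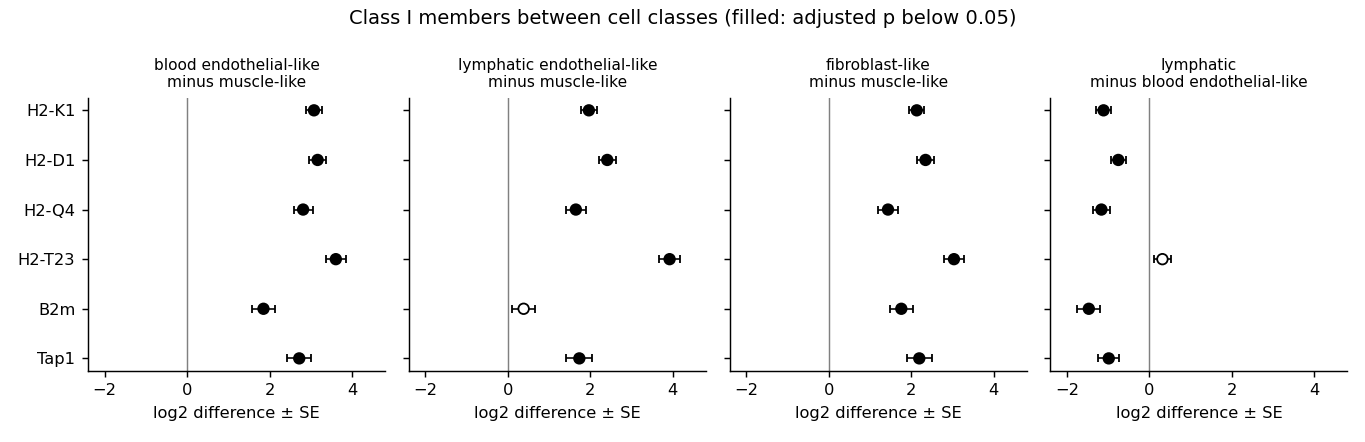
Log2 difference between cell classes with its SE for the 6 members other than H2-M9, from edgeR's quasi-likelihood test over 3 libraries; filled points passed an adjusted p of 0.05. All points are filled except B2m between lymphatic endothelial-like and muscle-like cells (0.38) and H2-T23 between the 2 endothelial classes (0.31).

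The rest of the class I pathway was counted without the members. Of 41 listed class I pathway genes 39 were in the files, and 23 passed the filter on low counts, members included. Leaving out H2-M9 and the other 6 members left 16. In blood endothelial-like against muscle-like cells 16 of the 16 were higher, beside 19.8% of all genes. Their median log2 difference was 1.92, beside -0.04 over all genes. Against muscle-like cells 14 of the 16 were higher and 0 lower in lymphatic endothelial-like cells, beside 20.3% and 21.9% of genes (median 1.30, all genes -0.04). In fibroblast-like cells 15 were higher and 0 lower, beside 20.9% and 17.6% (median 1.76, all genes 0.01).

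H2-Q6 and H2-Q7, nonclassical genes that resemble each other closely, and the immunoproteasome subunits Psmb8 and Psmb9 led the list in blood endothelial-like cells. H2-Q6 was at 0.45, 0 and 0 CPM in muscle-like cells and 87.5, 74.6 and 22.2 CPM in blood endothelial-like cells. H2-Q7 was at 85.5, 123.8 and 41.9 CPM in blood endothelial-like cells, with 4, 0 and 1 UMIs in muscle-like cells. Psmb8 was at 4.92, 1.28 and 3.68 CPM in muscle-like and 120.2, 142.9 and 173.9 CPM in blood endothelial-like cells, a log2 difference of 5.14 (SE 0.28). General chaperones moved less: calreticulin (Calr) differed by 0.68 (SE 0.17) and Canx by 0.49 (SE 0.17). Between the endothelial classes 7 of the 16 were lower in lymphatic cells and 0 were higher, beside 11.2% and 9.58% of genes (median -0.68, all genes -0.01).

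The interferon response genes, of which 33 of 34 listed were in the files and 32 were tested, took a like course. Against muscle-like cells 27 were higher and 0 lower in blood endothelial-like cells, beside 19.8% and 21% of all genes (median 2.04, all genes -0.04). In fibroblast-like cells 23 were higher and 0 lower, beside 20.9% and 17.6% (median 1.32, all genes 0.01). In lymphatic endothelial-like cells 20 were higher and 2 lower (Irf1 and Jak2), beside 20.3% and 21.9% (median 1.08, all genes -0.04). Gbp4, a guanylate-binding protein induced by interferon gamma, had 0 UMIs in muscle-like cells of all 3 libraries and was at least 84.1-fold, 32.7-fold and 51.3-fold higher in blood endothelial-like cells, against a floor of 3 counts per library. Rsad2 (viperin, an antiviral enzyme) was at 74.1, 168.3 and 43.8 CPM in blood endothelial-like cells and had 0 UMIs in lymphatic endothelial-like cells of all 3 libraries. Between the endothelial classes 13 were lower and 1 was higher in lymphatic cells (median -0.74, all genes -0.01), beside 11.2% lower and 9.58% higher over all genes. The 1 was Irf8, a transcription factor also known from myeloid cells, at 55.4 ± 3.59 CPM in lymphatic and 7.72 ± 2.67 CPM in blood endothelial-like cells.

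Within a class, the mixed library was set against the PLV libraries with the same test. The lone mixed sample was assumed to vary like the PLV samples. Vessel, digestion, staining, run, version of the counting software and mice cannot be told apart here. H2-M9 in muscle-like cells, given above without a test, was higher in the mixed library. The kinds of muscle moved with it, as Pln-Sorbs2 cells, which had no H2-M9, were 292 of 429 and 53 of 110 muscle-like cells in the PLV libraries and 41 of 316 in the mixed one. Of the other members, 0 of 6 were called in muscle-like cells by edgeR, beside 9.09% of 10836 genes higher and 8.2% lower. DESeq2 also called 0, and gave no adjusted p for Tap1. H2-T23 came nearest, with edgeR's adjusted p at 0.0719, and was the 1 member at an unadjusted edgeR p under 0.05. Fewer muscle cells with H2-M9 and less H2-M9 RNA per cell cannot be told apart in such sums.

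B2m passed the test as lower in the mixed library in fibroblast-like and lymphatic endothelial-like cells, but only under some settings, and its p-values rest on the spread between the 2 PLV libraries. Its log2 difference was -1.21 in fibroblast-like cells (SE 0.38, edgeR adjusted p = 0.0376, beside 4.02% of genes lower and 7.65% higher) and -1.44 in lymphatic endothelial-like cells (SE 0.30, adjusted p = 0.0431, beside 0.2% lower, 0.322% higher and 0.522% in either direction). DESeq2 itself also called both (adjusted p = 0.0491 and 0.0253 in that order). The calls were lost with DESeq2 size factors in edgeR (adjusted p = 0.0543 and 0.0921 in that order), and the lymphatic one also at clustering resolution 0.5 (edgeR adjusted p = 0.0901). In fibroblast-like cells it was at 986.8 and 1290 CPM in the PLV libraries and 341.7 CPM in the mixed one. In lymphatic endothelial-like cells it was at 544.8 and 483.5 against 162.9 CPM. In blood endothelial-like cells B2m was at 1328 and 1305 against 558.5 CPM, a difference of -1.09 (SE 0.22), where edgeR called 0 of 10262 genes (0% beside it; 1227 had an unadjusted p under 0.05) and DESeq2 gave B2m an adjusted p of 0.0080. H2-K1, H2-Q4 and Tap1 also had lower CPM in the mixed library than in both PLV libraries in these 3 classes. EdgeR called none of them, although H2-K1 had an unadjusted edgeR p under 0.05 in both endothelial classes. DESeq2 called none either, but gave no adjusted p for Tap1 in these classes or for H2-Q4 in fibroblast-like and blood endothelial-like cells. The largest fitted difference among them was -0.95 for H2-K1 in lymphatic endothelial-like cells (SE 0.30, edgeR adjusted p = 0.217). In fibroblast-like and both endothelial-like classes H2-D1 CPM was likewise lower in the mixed library than in both PLV libraries. Its ratios are given among the results flagged for a closer look. In Schwann-like cells B2m was at 621.5 and 550.6 against 394.3 CPM, with no test. In muscle-like cells of all kinds together B2m was at 241.1 and 268.1 CPM in the PLV libraries and 236.9 CPM in the mixed one. The fitted log2 difference, after TMM scaling, had the opposite sign at 0.13 (SE 0.24, edgeR adjusted p = 0.775). In Pln-Sorbs2 cells alone B2m was at 159.8 and 143.2 against 77.1 CPM. In Ano1-Hmcn2 cells it was at 414.0 and 446.7 CPM, against 259.9 in the Ntm-led cluster and 257.8 in P2rx1-Col12a1 cells. The part of the mix of kinds in the muscle sums was not tested. Whether the difference depends on the class was not tested.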

How the data were processed

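UMI counts of every gene in every barcode were used as deposited by the authors, without normalisation. Cell Ranger made them, version 6.1.2 for the PLV files and 4 for the mixed file, per the file headers, and the submitters' processing notes name GRCm38. For the aligner's settings: not given in the sources used here. GENCODE vM21 matched 32235 of the 32286 gene IDs.

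Barcodes with 500 or more UMIs, 300 or more genes, up to 15% mitochondrial and up to 20% haemoglobin UMIs were kept, and scrublet doublets (10, 3 and 3) were removed; undetected doublets may remain. Each library was clustered alone (scanpy 1.11.5, leidenalg 0.10.2, resolution 1) without the members, the listed genes, tdTomato, sex-limited or haemoglobin genes. A class needed 3 or more markers 2-fold above other cells. Clusters led by platelet genes, or by class II genes without a myeloid or B name, stayed unnamed, a rule set after clusters were seen. In PLV replicate 1 a cluster of 38 cells, led by Igfbp3, Crabp1 and Dkk2 with 5 of 8 blood endothelial markers, also stayed unnamed. Another rule left a cluster unnamed if its median UMIs were under 1/3 of the library's with no class marker among its 10 leading genes. That cluster had a median of 895.5 UMIs against 3372 in the library, and no blood endothelial marker among its leading genes. Classes were rebuilt here and are not the authors' annotation.

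Sums of 10 or more cells were tested with edgeR 4.0.16 (TMM, filterByExpr), with DESeq2 1.42.0 as an alternative. Where labels do not separate mice within a pool, a library is 1 replicate. On simulated counts with 200 genes changed 4-fold, blood endothelial-like minus muscle-like sums (10024 genes) gave 76.5% recovered and 1.29% false calls, and mixed minus PLV in muscle-like sums (9808 genes) gave 22.5% and 4.26%. Shares have 95% Clopper-Pearson intervals, and limits for a share of 0 and floors are 3 counts.

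The members and the gene lists were chosen with earlier results of these data known. Named genes are the 7 members, list genes past the threshold with the largest folds first (with Calr, Canx, Irf1, Jak2 and Irf8 added after their values were seen), and the 10 most like H2-M9. Alternatives covered cell filters, resolution, tools, scaling, left-out libraries, the block and thinning.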

Additional observations from a re-analysis of the deposited data

Results flagged for a closer look

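For H2-D1 and H2-T23 the ratio of the mixed library to each PLV library lay above 1 in muscle-like cells of all kinds together. It lay below 1 in some other classes, and this contrast between classes was not tested. Values are log2 ratios of CPM (1 CPM added), mixed over PLV replicate 1 and then over PLV replicate 2. H2-D1 was at 0.14 and 0.22 in muscle-like cells and -0.34 and -0.96 in fibroblast-like cells. In blood endothelial-like cells it was at -0.046 and -0.19, and in lymphatic ones at -0.33 and -0.44. H2-T23 was at 0.43 and 1.11 in muscle-like cells, -0.060 and 0.069, on either side of 0, in fibroblast-like cells, -0.082 and -0.30 in blood endothelial-like and -0.30 and -0.28 in lymphatic endothelial-like cells. Neither gene passed edgeR's threshold in any of these classes, and in muscle-like cells the Poisson intervals of the mixed library overlapped those of both PLV libraries for both genes. The ratios in each class share the mixed library. In Schwann-like cells, with no test, the mixed library was also above both PLV libraries for both genes. H2-D1 was there at 238.2 against 179.7 and 230.5 CPM. H2-T23, with 3 UMIs in the mixed library, was at 24.6 against 12.7 and 12.8 CPM. By kind of muscle, H2-D1 was at 77.6 and 67.3 CPM in Pln-Sorbs2 cells of the PLV libraries and 63.7 in the mixed one. In Ano1-Hmcn2 cells it was at 156.7 and 139.6 CPM, against 117.1 in the Ntm-led cluster and 124.6 in P2rx1-Col12a1 cells. In the same order H2-T23 was at 4.60, 2.17 and 3.35 CPM, and at 43.4, 21.7, 30.2 and 19.4 CPM. In none of these did the mixed library lie above both PLV values. The part of the mix of kinds in the muscle ratios was not tested.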

How the results depend on the processing

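Against muscle-like cells, 6 of 6 members stayed called in blood endothelial-like and fibroblast-like cells under all alternatives run, and 5 in lymphatic endothelial-like cells, or 6 without the mixed library. Lymphatic against blood endothelial-like cells gave 3 to 5 lower members when a library was left out (1458 to 2301 genes called, 2190 with all), 4 without PLV replicate 1 and 3 without PLV replicate 2. Dropping the replicate block (the library) left these member counts as they were, and genes called went from 4298 to 3428 for blood endothelial-like against muscle-like and from 2190 to 1699 for lymphatic against blood endothelial-like cells. For mixed against PLV, DESeq2 called 206 genes in muscle-like, 226 in fibroblast-like, 34 in blood endothelial-like and 23 in lymphatic endothelial-like cells, where edgeR called 1874, 1227, 0 and 47. Keeping doublets gave 844 in muscle-like, 238 in blood and 96 in lymphatic endothelial-like cells. Blood endothelial-like calls were 15 with 1000 or more UMIs, 178 with at most 10% mitochondrial, 503 at resolution 0.5, 40 with DESeq2 size factors and 378 without the low-count filter. Lymphatic endothelial-like calls were 267, 22 and 137 (at most 10% mitochondrial, resolution 0.5 and resolution 2), 19 with DESeq2 size factors and 214 without the filter. These whole-table counts are not stable, and the cause was not tested.

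H2-M9 in muscle-like cells was at 164.4 CPM in PLV replicate 1 with 1000 or more UMIs, against 97.5. In the mixed library it went from 344.3 to 387.3 CPM at resolution 0.5 and 392.3 CPM with mitochondrial, ribosomal and haemoglobin genes left out. It was at 261.3 CPM in P2rx1-Col12a1 cells thinned to 1500 UMIs, against 199.7. It was 0 in Pln-Sorbs2 cells under every alternative run. Without a threshold for kinds, added after seeing the data, the Ntm-led cluster goes to Ano1-Hmcn2, its highest score. In muscle-like cells, mixed against PLV, B2m turned from 0.13 to -0.056 with 1000 or more UMIs and H2-Q4 from 0.23 to -0.12 at resolution 0.5, neither called. B2m in fibroblast-like cells had an adjusted p of 0.0543 with DESeq2 size factors, and in lymphatic endothelial-like cells 0.0901 at resolution 0.5 and 0.0921 with DESeq2 size factors. No paired analysis was possible because the PLV and mixed groups share only 1 replicate number, given in accession order. Tap1 (24 UMIs) and H2-T23 (103 UMIs) in muscle rest on few counts, which limits their precision.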
